A study of Mus musculus with 5 samples.

Results

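Replication-dependent histone genes encode the linker histone H1 and the 4 core histones H2A, H2B, H3 and H4 that package newly made DNA. They were taken by symbol from a gene count table of MutuDC cells, and 64 of its 53700 genes matched: 5 for H1, 18 for H2A, 17 for H2B, 12 for H3 and 12 for H4. Of these, 54 lie in the clusters on chromosome 13 and 10 on chromosome 3 of the mouse build GRCm38. Each of the 64 symbols had 1 row. Among the H2A genes, H2ac14 is annotated as an unprocessed pseudogene.

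These genes are transcribed mainly in S phase, when DNA is copied. Their mRNAs usually carry no introns and no poly-A tail. They end instead just after a short stem-loop, which the stem-loop binding protein SLBP holds, and which directs cleavage, translation and rapid decay when replication stops. Some copies also give a longer, polyadenylated mRNA, which has been described in differentiating or resting cells. Replacement histones come from separate genes, most of them with introns and poly-A tails, and are made through the cell cycle. H2ax, an intronless gene, is known to give both a stem-loop and a polyadenylated mRNA.

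MutuDC is an established mouse line of dendritic cells of the cDC1 kind. A vehicle control and cells after 2, 6, 12 and 24 h with Fanchinoline (spelled so in the labels, which give no dose) were each sequenced as 1 library. The study's question is what changes in the transcriptome during treatment. Its design text calls the control untreated cells and speaks of triplicates, and whether the single libraries pool replicates is not stated. RNA was selected on oligo-dT beads, so what was counted is mainly the polyadenylated copies of histone mRNA, together with any tailless RNA that was carried over. With 1 library per time point no difference between 2 times has a replicate check.

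Total counts lay between 33568526 and 42854511 per library, and the 64 genes took 0.0346% of them in vehicle and 0.0357%, 0.0262%, 0.0185% and 0.0215% at 2, 6, 12 and 24 h. Levels are given in CPM, counts scaled to the effective library size. Where a gene had 0 counts the limit is 3 counts, 0.0703 to 0.0915 CPM. Intervals are exact at the 95% level and take in counting error alone. The vehicle library stood apart from the treated ones. Mitochondrially encoded genes took 2.58% of its counts against 1.48% to 1.78% in the treated libraries. With genes split by transcript length into 5 equal groups, the median log2 ratio to vehicle of the longest group lay 0.55 to 0.66 above that of the shortest, against 0.08 for 24 h over 2 h. The shortest group reaches up to 1743 nt and so covers the longest model of 56 of the 64 histone genes. Ratios to vehicle are also given after adjustment for transcript length and GC content, with ratios between treated libraries beside them. All 10 of the cDC1 markers were above 1 CPM in a library, with a sum of 10600 to 16600 CPM. Of the fibroblast, B and T cell and erythroid markers 0 reached 1 CPM, with 0 to 0.854 CPM for each sum. Among 5 epithelial markers 1 did, and among 6 macrophage markers 4 did, with sums of 7.39 to 10.5 and 137 to 187 CPM.

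The stem-loop itself is shown first, because it marks where the tailless histone mRNA ends. The letters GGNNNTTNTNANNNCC, with 6 pairs in the stem (G-T pairs allowed) around a loop of 4 bases, were searched on the sense strand of GENCODE transcripts. They were found after the coding part in 42 of the 64 genes (65.6%), and anywhere in a transcript in 155 of 55450 annotated genes (0.28%). In these sequences, 5′ to 3′ as DNA on GRCm38, capitals mark the stem-loop and lower case its 5 flanking bases on each side.
H1f2 (chr13:23739507-23739532, plus strand): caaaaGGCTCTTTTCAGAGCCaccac
H2bc8 (chr13:23571838-23571863, plus strand): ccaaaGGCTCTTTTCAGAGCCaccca
H2ac8 (chr13:23570663-23570688, minus strand): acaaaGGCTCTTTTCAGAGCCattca
H3c8 (chr13:23535884-23535909, plus strand): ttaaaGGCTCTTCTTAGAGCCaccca
H4c9 (chr13:22040961-22040986, minus strand): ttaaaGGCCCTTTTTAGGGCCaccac
H4c4 (chr13:23581945-23581970, plus strand): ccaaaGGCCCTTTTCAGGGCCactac
H4c11 (chr13:21735432-21735457, plus strand): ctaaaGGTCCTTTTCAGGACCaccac

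The stem told the H4 genes from the rest. All 31 stem-loops of H1, H2A, H2B and H3 genes had the arms GGCTCT and AGAGCC. Of the 11 H4 stem-loops, 9 had GGCCCT with AGGGCC and 2 (H4c2 and H4c11) had GGTCCT with AGGACC. The loop was TTTC in 32 genes, TTTA in 5, TTTT in 3 and TCTC or TCTT in 1 each, the last in H3c8.

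Annotated transcripts ran far past the stem-loop in a part of the genes, and these held most of the counts. The models of 20 genes continued for more than 60 nt after the stem-loop and took 72.6% of the counts of the 64 genes, with H1f2 (840 nt past the stem-loop) at their head. In 22 genes the model ended within 60 nt, as for the cleaved, tailless mRNA, and these took 2.63%. A further 6 genes had a model over 600 nt without stem-loop letters and took 23.3%, chiefly H2bc4, whose annotated transcript of 1156 nt has 2 exons, and H2bc21. The last 16 genes had short models without the letters and took 1.46%. Per length the groups lay closer together. The median level was 0.633 CPM per kb in the genes that run on and 0.465 in those that end near the stem-loop, with ranges of 0.133 to 103 and 0 to 3 CPM per kb. The high group total thus came from a few genes. How far a model extends reflects the transcripts that annotators had seen, not these libraries.

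**Figure D1:**
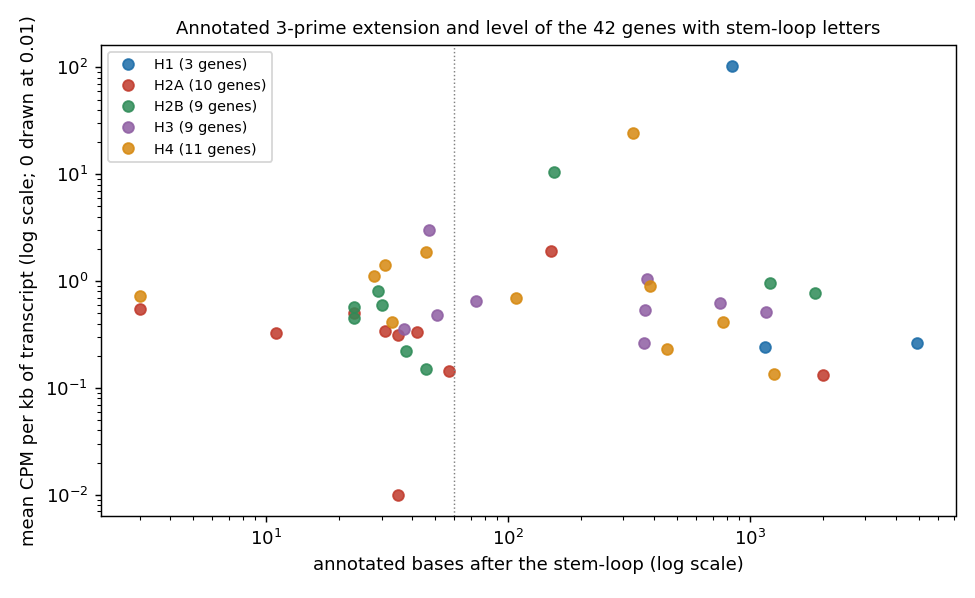
Mean level over the 5 libraries (CPM per kb of transcript, log scale) against the annotated bases after the stem-loop (log scale) for the 42 genes with stem-loop letters, coloured by histone class; the dotted line stands at 60 nt. H1f2 is highest at 103 CPM per kb, and every gene that ends within 60 nt is at 3 or below.

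A few genes supplied most of the histone counts. H1f2, which encodes the linker histone variant H1.2, held 98.3% of the H1 counts, and H1 as a class held 59.8% of all histone counts. H2bc4 held 75.2% of the H2B counts and H4c9 75.5% of the H4 counts, while H3 and H2A were spread over more copies, with at most 24.8% (H3c8) and 28.5% (H2ac8) in 1 gene. H2B took 27.5% of all histone counts, H4 8.6%, H3 2.36% and H2A 1.73%. On the scale of CPM per kb of transcript the order was H1f2 (103), H2bc4 (49.3), H4c9 (24.4), H2bc8 (10.5), H4c12 (4.41), H3c8 (3), H2ac10 (2.64) and H2bc21 (2.29). At least 1 CPM in at least 1 library was reached by 16 genes, and in every library by 8. The other 48 summed to 13.2 CPM in vehicle, and H2ac1 and H2ac19 had 0 counts in all 5 libraries.

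Summed over all 64 genes, histone RNA was lower from 6 h on and lowest at 12 h. The sum was 353.9 CPM in vehicle and 359.8, 264.3, 186.7 and 204.9 CPM at 2, 6, 12 and 24 h. The 2 h library lay close to vehicle (log2 ratio 0.02, interval -0.01 to 0.06). With DESeq2's size factors or total counts as the scaling it was at 0.04 and 0.05, with intervals above 0. Against vehicle the log2 ratio was -0.42 at 6 h (-0.46 to -0.38), -0.92 at 12 h (-0.97 to -0.88, a fold of 0.527) and -0.79 at 24 h (-0.83 to -0.75). Against the 2 h library, which leaves the vehicle library out, it was -0.95 at 12 h (-0.99 to -0.91) and -0.81 at 24 h (-0.85 to -0.77). The sum at 24 h stood slightly above that at 12 h (ratio 1.1, log2 interval 0.09 to 0.18). In bulk RNA, fewer cells with these messages and less of them per cell cannot be told apart, nor can exposure to the compound and hours in culture. Cell type markers moved too. The 4 macrophage markers compared had median log2 ratios to vehicle of -0.40, -0.61, -0.81 and -0.62 at 2, 6, 12 and 24 h, with 1 called lower at 12 h and at 24 h, and the 10 cDC1 markers -0.10, -0.23, -0.38 and -0.59, with 1 called lower at 24 h. Their part in the histone values was not tested.

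The less abundant histone genes were lower at 12 h as well. Without H1f2, H2bc4 and H4c9 the other 61 genes summed to 48.1 CPM in vehicle and 42.1, 40.3, 28.0 and 32.4 CPM at 2, 6, 12 and 24 h, with log2 ratios to vehicle of -0.78 at 12 h (-0.90 to -0.67) and -0.57 at 24 h (-0.68 to -0.47). Their 6 h library did not differ from 2 h beyond counting error (-0.07, -0.17 to 0.03). The 48 genes under 1 CPM, which entered for being low in every library, summed to 13.24, 13.02, 13.19, 6.997 and 9.347 CPM in the same order of libraries. Their log2 ratio to vehicle was -0.92 at 12 h (-1.15 to -0.70) and -0.50 at 24 h (-0.70 to -0.30). Genes whose models end within 60 nt of the stem-loop were at 7.47, 9.11, 9.42, 4.21 and 5.32 CPM, and those that run on at 248.9, 267.4, 193.2, 139.4 and 145.3 CPM. Both sets were lowest at 12 h. At 6 h the first set stood above vehicle (0.33, 0.10 to 0.57) and the second below it (-0.37, -0.41 to -0.32).

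RNAs that are made without a poly-A tail were also lower in the later libraries. The 18 of them in the table, among them Rpph1, the RNA of ribonuclease P, and the signal recognition particle RNAs Rn7s1 and Rn7s2, summed to 6.80 CPM in vehicle and 5.63, 4.10, 3.74 and 3.96 CPM at 2, 6, 12 and 24 h. Only 3 reached 1 CPM. Rpph1 was at 2.84, 1.61, 1.25, 1.25 and 0.633 CPM (24 h over vehicle -2.08, -2.84 to -1.53), and was called lower at 6, 12 and 24 h. Rn7s1 and Rn7s2 were lowest at 12 h, like the histone sum, at -0.98 (-1.77 to -0.32) and -1.07 (-1.85 to -0.42) against vehicle, and Rn7s2 was called there. At 24 h Rn7s1 (-0.13) and Rn7s2 (-0.26) did not differ from vehicle beyond counting error. After adjustment for length and GC content Rpph1 was at -0.76 at 12 h, which did not pass, and at -1.64 at 24 h. How much carry-over of tailless RNA into the libraries contributed to the histone values was not tested.

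The histone classes did not move alike. H1 summed to 204.6 CPM in vehicle and 229.1, 159.9, 108.8 and 117.0 CPM at 2, 6, 12 and 24 h, so that it stood above vehicle at 2 h by 0.16 on the log2 scale (0.12 to 0.21), below it at 6 h (-0.36) and further below at 12 h (-0.91). Without H1f2 the other 4 H1 genes were on the other side of vehicle at 2 h (-0.55, -0.92 to -0.19). H2B reached its low at 12 h, with 109.6, 90.9, 67.8, 48.1 and 61.3 CPM and a log2 ratio to vehicle of -1.19 at 12 h (-1.27 to -1.11). Its lower value at 2 h does not hold for its leading genes once length and GC content are adjusted for, with H2bc4 at -0.25 as measured and 0.08 adjusted and H2bc8 at -0.15 and 0.01. H2A peaked at 6 h, with 5.43, 5.52, 7.54, 2.41 and 2.44 CPM. It stood above vehicle at 6 h by 0.47 (0.20 to 0.75), and its log2 ratio for 12 h over 6 h was -1.64 (-1.996 to -1.30). The H2A sum takes in H2ac18, with 2 counts in vehicle and 0, 24, 0 and 12 at 2, 6, 12 and 24 h. H2ac18 shares exon positions with Gm20634. H3 as a sum was level to 6 h and lower at 12 h, with 7.44, 7.90, 7.40, 4.11 and 5.20 CPM. Its 2 h sum takes in H3c14 (43 counts in vehicle, 2 at 2 h), which shares exon positions with Gm20634. The other compared H3 genes were at 0.53 (H3c8), 0.33 (H3c15) and -0.40 (H3c4) at 2 h over vehicle. Of these only the interval of H3c8 excluded a ratio of 1. The 8 H3 genes under 1 CPM stood above vehicle at 2 h (0.55, 0.10 to 1.01). H4 lay nearest to vehicle at 12 h. It was at 26.8, 26.4, 21.7, 23.3 and 19.0 CPM, with -0.20 at 12 h (-0.34 to -0.06) and -0.50 at 24 h (-0.64 to -0.36) against vehicle. Class sums are not adjusted for length and GC content, and H4c9, the leading H4 gene, was at -0.002 at 12 h once adjusted. The intervals of H4 and H2B at 12 h do not overlap. Without H4c9 and H2bc4 they do, at -0.31 (-0.60 to -0.01) and -0.73 (-0.88 to -0.57). Copies of H2A, H2B, H3 and H4 share sequence with one another to differing degrees, so the values of single copies are uncertain. Some also share it with genes outside their class, such as H3c14 with Gm20634, H2ac18 with Gm20633 and H2ac19 with Gm20632. Whether the class sums are firmer was not tested.

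**Figure D2:**
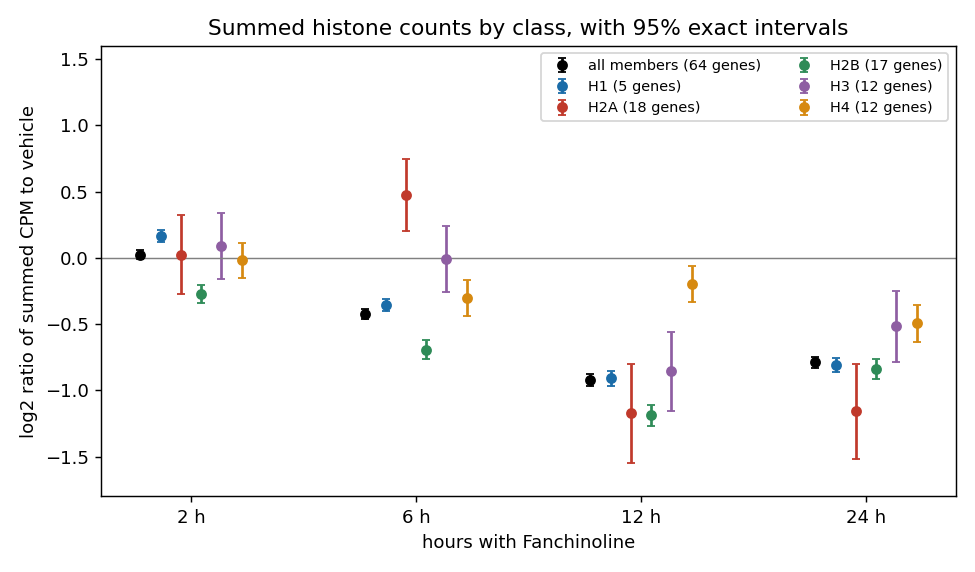
Log2 ratio of summed CPM to vehicle at 2, 6, 12 and 24 h for all 64 genes and for each histone class, with 95% exact intervals for counting error. The sum of all genes lies at -0.92 at 12 h; H2A stands above vehicle at 6 h (0.47), and H4 lies nearest to vehicle at 12 h (-0.20).

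Single genes were compared where they reached 1 CPM in a library, which 16 of the 64 did. A gene is called higher or lower where its log2 ratio is at least 1 in size and its interval excludes a ratio of 1. At 12 h over vehicle 6 of the 16 were called lower (37.5%) and 0 higher, against 2.32% of all 12002 genes compared called lower and 3.1% called higher. The 6 were H1f3 (-1.58), H2bc4 (-1.36), H3c8 (-1.36), H3c4 (-1.30), H2ac8 (-1.28) and H2bc8 (-1.22). Adjusted for length and GC content, 2.07% of genes were called lower, and the 6 histone genes called were these 6. H1f2 lay at -0.90 (-0.96 to -0.84) and was not called. A gene that reached 1 CPM only through its highest library had to differ between libraries, so the count over these 16 is a description.

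Measured from the 2 h library instead, the call was as frequent. At 12 h over 2 h 6 of 16 were called lower, against 1.21% of all genes, and 4 of them were also lower against vehicle. Both comparisons use the same 12 h library, and the share of all genes lower in both is not given here. These 6 were H3c8 (-1.89), H2ac10 (-1.17), H2bc4 (-1.11), H1f2 (-1.08, -1.13 to -1.02), H2bc8 (-1.07) and H1f3 (-1.05). After adjustment for length and GC content 5 of these histone genes remained, without H2ac10 (-0.63). The adjusted share of all genes is not given for this comparison, so that count has no background. One gene, H3c14, was called higher, against 1.12% of all genes.

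At the other times few histone genes passed. At 2 h over vehicle 2 were called lower, H3c14 and H2bc9 (-1.01), and 0 higher, against 1.52% and 1.79% of all genes. At 6 h 1 was called lower, H1f3 (-1.31), and 1 higher, H2ac10 (1.06), against 1.66% and 2.45%. Adjusted for length and GC content H2ac10 lay at 0.92 and was not called. At 24 h 2 were called lower, H2ac8 (-2.28, -3.28 to -1.64) and H3c4 (-1.14), and 0 higher, against 2.72% and 4.34%. Adjusted for length and GC content, 2.51% of genes were called lower at 24 h, and the histone genes called were H2ac8 (-2.15) and H1f3 (-1.39), with H3c4 just short at -0.997. At 24 h over 2 h 3 were called lower, H2ac10 (-1.64), H2ac8 (-1.45) and H3c8 (-1.43), and 1 higher, H3c14, against 1.35% and 2.14%. Adjusted, H2ac10 lay at -0.97 and lost its call, which left 2 lower. For 24 h over 2 h the adjusted share of all genes is not given here. Over the 16 genes the median log2 ratio to vehicle was -0.20, -0.43, -0.77 and -0.84 at 2, 6, 12 and 24 h, where that of all genes lay between -0.01 and 0.02. Adjusted for length and GC content it was 0.04, -0.29, -0.58 and -0.49. The 2 h value thus changed sign.

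**Figure D3:**
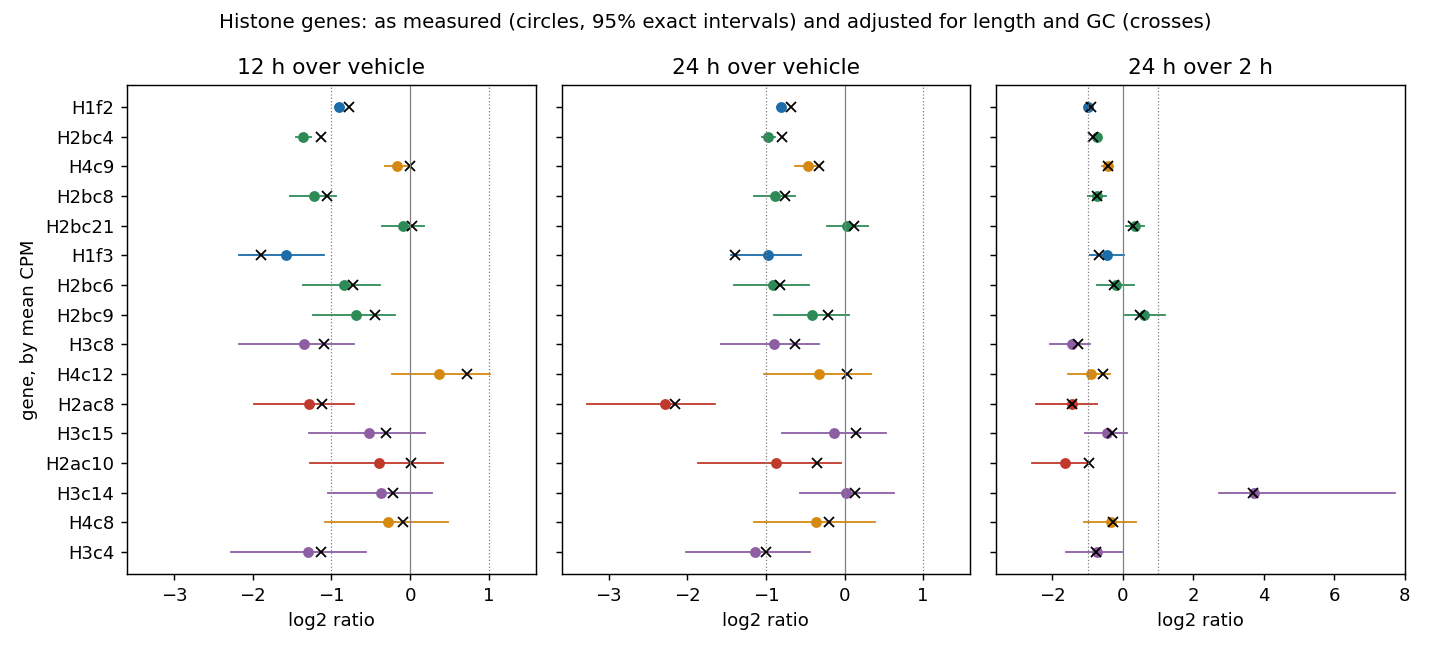
Log2 ratios of the 16 histone genes with at least 1 CPM in a library at 12 h over vehicle, 24 h over vehicle and 24 h over 2 h, ordered by mean CPM. Circles are values as measured with 95% exact intervals, coloured by class; crosses are adjusted for transcript length and GC content; dotted lines mark -1 and 1. At 12 h 6 circles and 6 crosses lie beyond -1, and H2bc21 and H4c9 lie near 0.

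The linker histones were led by H1f2 (chromosome 13, 23738808 to 23740367, plus strand, 1 exon). It was at 200.1 CPM in vehicle and 226, 157.7, 107.2 and 114.3 CPM at 2, 6, 12 and 24 h. It stood highest at 2 h and lowest at 12 h, with the 12 h and 24 h libraries close to each other. Only 6.7% of the 75-base words of its transcript occur in another gene, so that its reads can mostly be told apart. H1f3, encoding H1.3, was at 3.36, 2.30, 1.32, 1.09 and 1.69 CPM, lower in each treated library than in vehicle. Its annotated transcript is 7425 nt long, and adjustment for length moved its 24 h ratio from -0.97 to -1.39. H1f1, H1f4 and H1f5 stayed under 1 CPM and summed to between 0.477 and 1.13 CPM.

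Among the H2B genes, H2bc4 (chromosome 13, 23684199 to 23692908, plus strand, 2 exons) was at 85.2 CPM in vehicle and 71.8, 51.2, 33.2 and 43.5 CPM at 2, 6, 12 and 24 h. As measured it was lower in each library up to 12 h and then somewhat higher. Its 2 h ratio to vehicle changed sign with adjustment for length and GC content, from -0.25 to 0.08, and its 12 h ratio was -1.13. When the adjustment was fitted on genes of at least 10 CPM alone these were 0.17 and -1.02. H2bc8 followed the same course, with 8.97, 8.09, 6.74, 3.82 and 4.85 CPM. Of the 75-base words of H2bc4, 27.1% occur in another gene, and of those of H2bc8, 47.4%. H2bc21, on chromosome 3, entered by its symbol, and whether it depends on replication was not tested. Its transcript of 2620 nt holds no stem-loop letters after the coding part and shares no 75-base word with another gene. H2bc21 did not follow that course. It was at 6.74, 5.44, 4.55, 6.33 and 6.91 CPM, lowest at 6 h, and its 24 h value did not differ from vehicle beyond counting error (0.04, -0.22 to 0.29). The intervals of H2bc4 and H2bc21 at 24 h over vehicle do not overlap. H2bc6 and H2bc9 ranged from 1.15 to 2.90 CPM and were highest in vehicle. H2bc6 shares exon positions with H1f4 on the same strand, so the division of reads between them is uncertain.

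H4c9 (chromosome 13, 22040636 to 22041362, minus strand, 1 exon), the main H4 gene, was at 20.5, 19.9, 15.1, 18.2 and 14.8 CPM. It was lower at 6 h and 24 h than in vehicle (-0.44 and -0.47), and at 12 h it stood at -0.17 (-0.32 to -0.01), between these libraries. Adjusted for length and GC content it was at -0.27, -0.002 and -0.33 at 6, 12 and 24 h. With the adjustment fitted on genes of at least 10 CPM alone its 12 h ratio was 0.13. H4c12 ranged from 0.914 to 1.77 CPM and H4c8 from 0.726 to 1.06 CPM, and for both the interval at 12 h over vehicle included a ratio of 1. Their values are uncertain, since 68.1% of the 75-base words of H4c12 and 42.4% of those of H4c8 occur in another gene.

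The H2A and H3 genes were low and partly uncertain. H2ac8 had 70 counts in vehicle and 44, 93, 32 and 17 at 2, 6, 12 and 24 h. H2ac10 had 28, 56, 78, 24 and 19. In CPM both were highest at 6 h and lowest at 24 h, but for H2ac8 the 6 h and vehicle libraries did not differ beyond counting error (0.04, -0.43 to 0.51). Of the 75-base words of H2ac10, 86.8% occur in another gene, and both genes have an annotated antisense neighbour, which libraries of a kit that does not mark strand cannot separate. H3c8 had 56, 93, 94, 24 and 38 counts, with the 2 h and 6 h libraries highest. H3c4 had 41, 35, 28, 18 and 23, and H3c15 38, 55, 36, 30 and 45. H3c14 had 43, 2, 40, 38 and 57 counts, and its 2 h ratio to vehicle was -3.69 (-7.70 to -2.67). It shares exon positions with Gm20634, which had 150, 194, 85, 94 and 100 counts. H3c14, the neighbouring H2ac18 and Gm20634 together were at 5.95, 5.25, 3.51, 3.50 and 3.96 CPM, with no dip at 2 h. H3c14 was called at 2 h, and at 12 and 24 h over 2 h, and the part that the division of reads between these genes had in those calls was not tested.

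**Figure D4:**
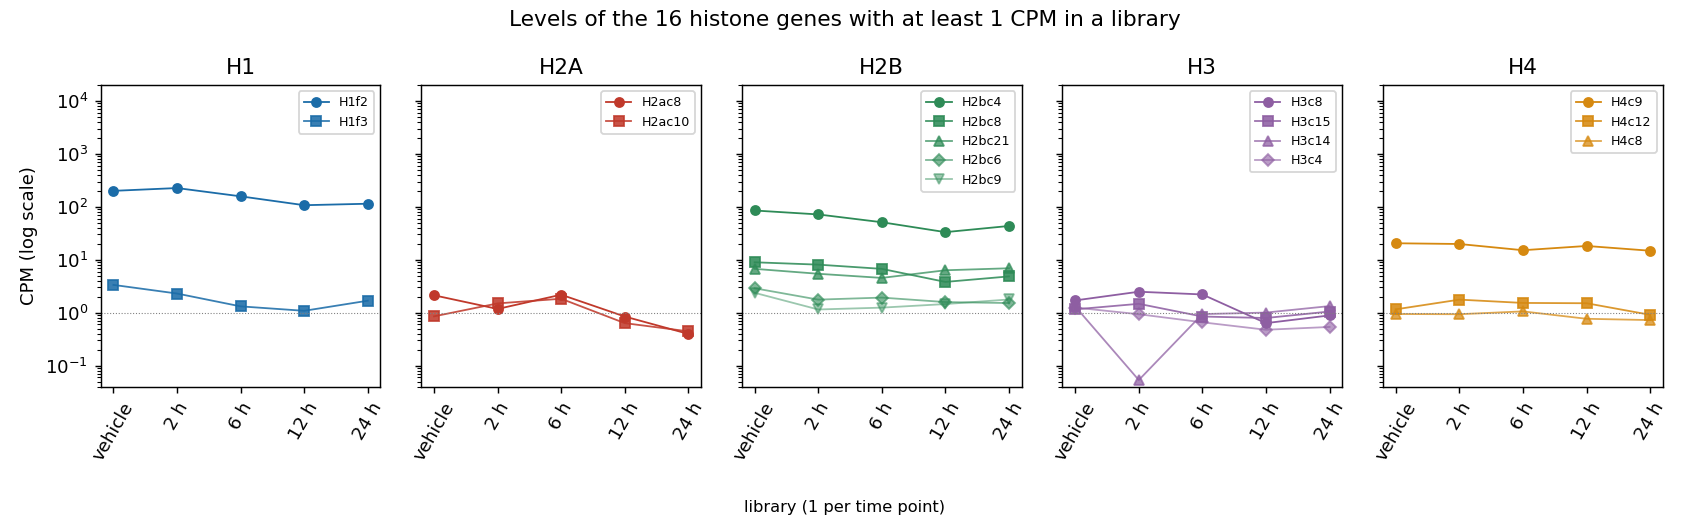
CPM (log scale) of the 16 histone genes with at least 1 CPM in a library (dotted line at 1 CPM) in the vehicle library and at 2, 6, 12 and 24 h, 1 panel per histone class and 1 library per point. H1f2, H2bc4 and H2bc8 are lowest at 12 h, the H2A genes are highest at 6 h, and the 2 h point of H3c14 rests on 2 counts.

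Over all 5 libraries the slope against log2(hours + 1) could be tested, since the spread around the line stands in for replicates. The test was edgeR's quasi-likelihood F-test, with Benjamini-Hochberg adjustment over 13877 genes. Of 39 histone genes tested 3 fell and 0 rose, against 4.06% and 5.4% of all genes. H2bc4 fell with a slope of -0.26 ± 0.05 (SE, adjusted p = 0.03), H4c4 with -0.48 ± 0.11 (adjusted p = 0.0368) and H1f2 with -0.23 ± 0.06 (adjusted p = 0.0433). H2bc8, at -0.24 ± 0.06, had an adjusted p of 0.0541. Slopes were below 0 for 32 of the 39 (82.1%) and for 49.8% of all genes. No slope was adjusted for transcript length and GC content. Most histone genes fall in the shortest length group, whose median lay below vehicle in every treated library. All genes are therefore not a matched background for this share. H4c4 was under 1 CPM in every library, with 32, 19, 16, 13 and 7 counts. Without the vehicle library 4 of 37 histone genes fell by edgeR's test, against 1078 of all 13764 genes. The 4 were H1f2 (edgeR adjusted p = 0.00662), H2bc4 (0.0389), H3c3 (0.0477) and H3c8 (0.0488). Without the 6, 12 or 24 h library 0 histone genes fell by edgeR's test, against 197, 0 and 3 of all genes. Without the 12 h library 0 of all genes rose either. At an unadjusted p under 0.05 were 10 of 37, 7 of 41 and 7 of 35 histone genes, against 25.8%, 20.9% and 23.5% of all genes. With all libraries 9 of 39 were under that limit, against 29.7% of all genes. Of all 13877 genes DESeq2 called 1124 falling and 1327 rising. Among the 39 histone genes it called 3 falling and 0 rising, but not the same 3. They were H2bc4 (adjusted p = 0.000133), H1f2 (0.000721) and H2bc8 (0.00652), while for H4c4 DESeq2 gave no adjusted p.

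Few genes of DNA replication or of mitosis were called at 24 h. Of 36 DNA replication genes 1 was called at 24 h over vehicle, Pola1, the catalytic subunit of DNA polymerase alpha (1.02, and 0.79 adjusted for length and GC content, which did not pass), and 0 were lower. Their median was 0.20 (0.22 adjusted). Pcna, the sliding clamp of replication, was at 351.8, 326.5, 370.7, 440.2 and 462 CPM and Rrm2, a subunit of ribonucleotide reductase, at 475.6, 491.8, 577.8, 699.8 and 689.2 CPM. Both were highest in the late libraries, where the histone sum was lowest. Rfc1, of the clamp loader, was at 0.92 (0.70 adjusted) and Pole, of DNA polymerase epsilon, at 0.76 (0.27 adjusted). Among 19 mitosis genes Bub1, a checkpoint kinase, was called higher (1.002, and 1.02 adjusted), and the median was 0.12 (-0.01 adjusted). Mki67, a marker of cycling cells, was at 0.59 (-0.03 adjusted), with Cenpf at 0.59 (-0.01 adjusted) and Cenpe at 0.52 (0.06 adjusted). At 24 h over 2 h, where the length difference was small, the medians of replication and mitosis genes were 0.17 and 0.36, and 0 of either list were called.

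Genes that transcribe and process histone mRNA lay on both sides of vehicle at 24 h. Of 32 genes for 3′ processing and the histone locus body 0 were called higher and 1 lower, with a median of 0.12 (0.03 adjusted). The lower gene was Snrpf, a Sm protein shared by many small nuclear RNPs (-1.21, and -0.98 adjusted, which did not pass). Slbp was at 106.6, 99.7, 119.4, 139.7 and 130.5 CPM (0.29). Casp8ap2, which encodes FLASH of the cleavage complex, was at 0.94, Npat, the coactivator of histone genes, at 0.80, Hinfp, the H4 promoter factor, at 0.73 and Lsm11, of the U7 particle, at 0.26. These 4 did not pass, and adjusted for length and GC content Casp8ap2 was at 0.56, Npat at 0.50, Hinfp at 0.42 and Lsm11 at -0.16. Of 13 genes for histone mRNA decay 1 was higher, Smg1, a kinase of RNA surveillance (1.16, and 0.48 adjusted, which did not pass). The exonuclease Xrn1 was at 0.86 (0.29 adjusted), the decapping enzyme Dcp2 at 0.61 (0.11 adjusted) and Lsm4 at -0.57 (-0.32 adjusted). Of 23 chaperone and histone acetylation genes 1 was higher, Ubn1, of the HIRA complex (1.31, and 0.89 adjusted, which did not pass). The H3-H4 chaperone Asf1a was at -0.86 (-0.68 adjusted), Atrx at 0.72 (0.16 adjusted) and Nap1l1 at -0.57 (-0.61 adjusted).

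Of the 11 replacement histones compared, H2ax lay farthest below vehicle at 24 h. It encodes H2A.X, which is phosphorylated at DNA breaks, and is the only gene among them that was called at 24 h (-1.02, -1.07 to -0.97). It was at 242.8 CPM in vehicle and 275.2, 269.6, 133.1 and 119.8 CPM at 2, 6, 12 and 24 h, and so was lower by 12 h but not at 6 h, as the H2A sum was. At 24 h over 2 h it was at -1.20. Adjusted for length and GC content its 24 h ratio to vehicle was -0.71 and did not pass. Its slope over the 5 libraries, without that adjustment, did not pass either (-0.25 ± 0.08 SE, edgeR adjusted p = 0.0996). Its transcripts hold the stem-loop letters, as do those of H2bu2, while the other 11 genes of this list in the table lack them. H1f0, the linker histone of resting cells, was at 408.2, 400.3, 297.2, 257.3 and 270 CPM. Without adjustment for length and GC content it had a falling slope over the 5 libraries (-0.16 ± 0.04 SE, edgeR adjusted p = 0.036). It reached -0.60 at 24 h (-0.49 adjusted) and was not called. Macroh2a1 was at -0.53 (-0.67 adjusted), H2aj at -0.51, H3f3b at -0.18 and H2az1 at 0.15, and the list's median was -0.27 (-0.29 adjusted).

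**Figure D5:**
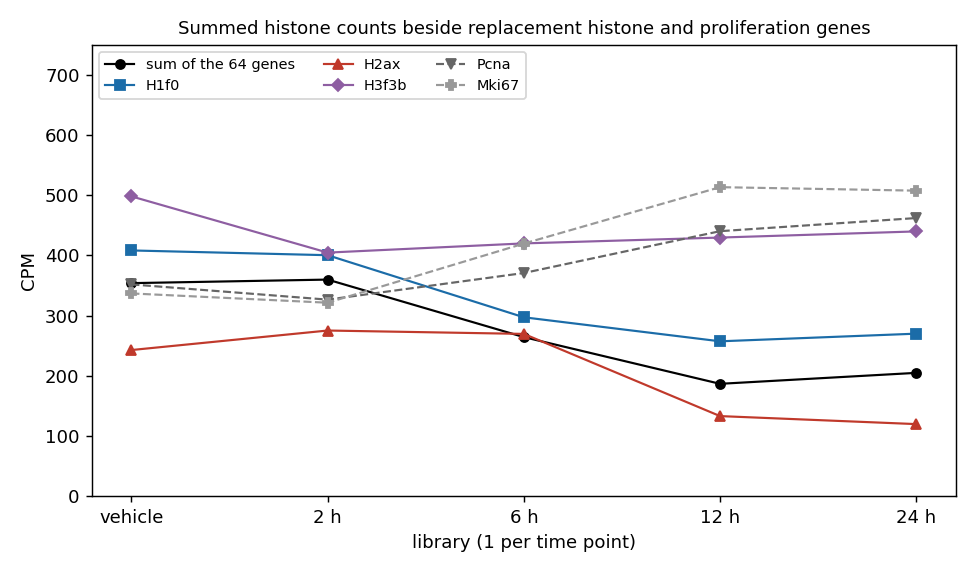
CPM of the summed 64 replication-dependent histone genes, of the replacement histone genes H1f0, H2ax and H3f3b and of Pcna and Mki67 (dashed) in the vehicle library and at 2, 6, 12 and 24 h, 1 library per point. The histone sum, H1f0 and H2ax are lower at 12 and 24 h than at 2 h, where Pcna and Mki67 are higher.

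Promoters are given because members of 1 cluster moved differently. For 57 of the 64 genes RefSeq (GRCm38.p6) gives a promoter of 250 bases before and 50 after the start. H2bc4 and H2bc21 are not among them. CCAAT, on either strand, was in 49 of the 57 (86%) against 37.4% of all 32851 promoters of the same length, in all of the H1, H2A, H2B and H3 promoters and in 3 of 11 of H4. TATAAA was in 34 (59.6% against 13.6%). The octamer ATTTGCAT, known from H2B promoters, was in 6 of 14 H2B and 6 of 17 H2A promoters and in 0 of H1, H3 and H4, against 1.74% of all. These H2A and H2B counts are not independent. The windows of H2ac1 and H2bc1, of H2ac8 and H2bc8 and of H2ac12 and H2bc12 overlap, and each pair holds the same octamer, which is counted for both genes. The CCAAT and TATAAA counts are not independent either. Windows of further H2A and H2B pairs overlap and hold the same CCAAT and TATAAA letters, among them H2ac7 with H2bc7 and H2ac22 with H2bc22. AAACACA, the H1 box, was in 4 of 5 H1 promoters (80%) against 7.18%. In these stretches of 120 bases before the start, capitals mark these letters, and no motif overlaps another.
H1f2 (chr13:23738687-23738806, plus strand): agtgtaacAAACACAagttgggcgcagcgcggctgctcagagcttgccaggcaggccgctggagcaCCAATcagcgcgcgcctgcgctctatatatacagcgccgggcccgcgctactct
H2bc8 (chr13:23571280-23571399, plus strand): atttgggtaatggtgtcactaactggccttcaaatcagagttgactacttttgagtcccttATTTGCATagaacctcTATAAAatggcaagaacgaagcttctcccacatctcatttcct

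H2bc8 and H2ac8 lie head to head with 175 bases between their annotated starts, so that their promoter windows overlap and hold the same octamer and TATAAA letters. At 12 h over vehicle both were called lower, at -1.22 for H2bc8 and -1.28 for H2ac8. Over the other libraries their levels did not run in parallel. H2bc8 was lower by 12 h and somewhat higher at 24 h, whereas H2ac8 was lower at 2 h than at 6 h and lowest at 24 h. The intervals of their 24 h ratios to vehicle, -1.15 to -0.63 and -3.28 to -1.64, do not overlap. The 24 h value of H2ac8 rests on 17 counts in 1 library, and both genes share part of their sequence with other genes. A match of letters is a description and shows no binding.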

How the data were processed

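The authors deposited 1 table of raw counts per gene, with 1 column for each of the 5 libraries. Trim Galore, HISAT2 and GRCm38 appear in the submitters' processing notes without versions. For the counting program, annotation, use of strand and reads that match several genes, the sources used here give nothing. Per the labels' protocols, poly-A RNA was selected and a TruSeq RNA kit was used, which does not mark strand. Every library was used, and each time point is 1 group of 1 library.

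Counts were scaled with edgeR 4.0.16 (TMM factors 0.977 to 1.05) in R 4.3.3, and log2 ratios used a prior count of 2. At 1 CPM a gene had 32.8 to 42.7 counts. Intervals of ratios are 95% exact (Clopper-Pearson) intervals. They take 1 count as 1 read and hold for counting error only, since PCR copies are not independent molecules. Genes were compared that reached 1 CPM in 1 library or more, and the size rule compares libraries, not conditions. The slope test used filterByExpr, a threshold of 0.05 and 3 residual degrees of freedom per gene. With each group at 1 library, its p-values measure the lack of fit around the line. Length and GC content of the longest transcript came from GENCODE's annotation on GRCm38 (99.7% of compared genes), and the adjustment was a smooth fit with mgcv 1.9.3. DESeq2 1.42.0 gave other size factors and a Wald test of the slope. On simulated counts the slope test recovered 57 of 100 slopes of 0.25 and 84 of 100 of 0.5 over 13654 genes, with 1 false call each. In a like check of the size rule for 24 h over vehicle, 193 of 200 changed genes were recovered. That check gave 60 false calls over 13877 genes.

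The genes, lists and tests were chosen with earlier results of these data known. Named were all histone genes that reached 1 CPM, the up to 4 genes per list with the largest ratio at 24 h over vehicle, and Slbp, Npat, Casp8ap2, Lsm11, H2az1, H3f3b, H1f0, Pcna, Mki67, Rmrp and Rn7sk. Rmrp did not reach 1 CPM and Rn7sk is not analysed here. H1f1, H1f4, H1f5, H2ac1, H2ac18, H2ac19, H2bu2, H3c3, H4c2, H4c4, H4c11 and Gm20634 were named after their values were seen. So were H2ac7, H2ac14, H2ac22, H2bc7 and H2bc22, for their annotation or promoters. Ratios of 12 h over 2 h, and of the other pairs of treated libraries, were added after the data were seen.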

Additional observations from a re-analysis of the deposited data

How the results depend on the processing

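With 1 library per group, no difference between 2 times could be checked by replicates, and a gene at 1 CPM rests on 32.8 to 42.7 counts. No paired analysis was possible because each group has 1 library. The sums over all 64 genes kept their direction under every scaling at 6, 12 and 24 h. With total counts as the only scaling they were at -0.69 for 24 h over vehicle and -0.73 for 24 h over 2 h. Without H1f2 they were at -0.20 for 2 h, -0.53 for 6 h and -0.56 for 24 h over 2 h, so the 2 h value lay below vehicle only without this gene. Chosen after the data were seen, leaving out the 3 highest genes gave -0.19, -0.26, -0.78 and -0.57 at 2, 6, 12 and 24 h and -0.38 for 24 h over 2 h, and with the 2 h library in place of vehicle 6 genes were lower and 1 higher at 12 h.

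The number of histone genes called rests on the minimum, by construction. With a minimum of 10 CPM, which 3 histone genes reach, 1 was called lower at 12 h, 0 were lower at 2, 6 and 24 h and at 24 h over 2 h, and 0 were higher at 6 h and at 24 h over 2 h. Adjusted for length and GC content as well (added after the data were seen), these counts were also 1 at 12 h and 0 in the others. With no minimum, 62 histone genes had a count, and 4, 5, 14 and 6 were lower at 2, 6, 12 and 24 h and 10 at 24 h over 2 h. Then 3, 3 and 1 were higher at 2, 6 and 24 h and 2 at 24 h over 2 h. The histone genes this adds lay under 1 CPM in every library. The share of all genes called at 10 CPM or with no minimum is not given here, so these counts have no background to be read against. DESeq2's size factors or total counts left 1 lower gene at 2 h. The length and GC adjustment left 1 lower at 2 h and 0 higher at 6 h. The adjusted share of all genes at 2 and 6 h is not given here. A prior count of 0.5 moved no count of calls by over 1.5 times. Summing the rows of a symbol could not change a histone gene, since each has 1 row.

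The number of histone genes that fell over the 5 libraries ranged from 0 to 4 with 1 library left out each time. With no filter on low counts it was 0, where edgeR passed 0 of all 24170 genes. There 11 of 62 histone genes had an unadjusted p under 0.05, against 20% of all genes. The number that fell was 3 with hours as ranks, the same genes, against 374 of all 13877 genes. It was 3 with DESeq2, against 1124 of all 13877 genes, where H2bc8 passed and H4c4 had no adjusted p.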
